A study of Mus musculus with 18 samples.

Results

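The Myc network was examined across the 6 RNA-sequencing libraries of ED1SQ4 cells, a murine lung cancer line derived from transgenic mice that overexpress cyclin E in the lung. Its 10 members were *Myc*, *Mycn*, *Mycl*, *Max*, *Mxd1*, *Mxi1*, *Mxd3*, *Mxd4*, *Mnt* and *Mga*, chosen by gene symbol from the 55450 genes of the count table, and all 10 had at least 30 reads in every library. Cells were treated for 72 hours with vehicle or with 0.5 μM CYC065 (fadraciclib), an inhibitor of the cyclin-dependent kinases CDK2 and CDK9, and were then taken unsorted or sorted by DNA content into 2N and 4N populations after staining with a DNA dye. Every condition therefore carried the same cyclin E background in 1 cell line. Each condition was represented by 1 sequenced library of 54750203 to 62795507 counted reads. Its 3 deposited columns differed by no more than sampling noise over genes with whole counts, as all 10 members have (chi-square per degree of freedom 0.991 to 1.02), and were summed as 1 sample. Over genes whose counts were divided between genes with shared sequence the value was 4.35 to 7.60. No comparison below has a replicate culture, so no p-value is given, and the 95% intervals cover counting error only.

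Myc proteins bind DNA at E-box sequences as dimers with Max and activate transcription of genes for ribosome production and growth metabolism. The Mxd proteins, Mxi1 and Mnt compete for Max, bind the same sequences and recruit repressors, and Mga joins Max in a different repressive complex. In many cell types Myc is high during proliferation, while Mxd1, Mxi1 and Mxd4 are known for higher levels as cells leave the cell cycle or differentiate, and Mxd3 is known for expression around S phase. The *Myc* transcript and protein are both short-lived.

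The labelled cell type was checked against its markers. Epithelial markers were at or near 0, with 0 to 1 reads of *Epcam* and at most 43 reads of *Krt8*, 20 of *Krt18* and 15 of *Cdh1* in a library. The lung lineage markers *Nkx2-1* and *Scgb1a1* had 0 reads in every library, *Sftpc* had at most 1 and *Sftpb* at most 5. *Vim*, which encodes a mesenchymal intermediate filament, had 115094 to 279362 reads, *Zeb1* 5973 to 9441 and the mesenchymal marker *Cdh2* 7341 to 9262. CYC065 log2 ratios in unsorted, 2N and 4N cells were -0.67, -0.83 and -0.92 for *Vim* and 0.58, 0.37 and 0.49 for *Zeb1*. For *Cdh2* they were -0.02, -0.32 and -0.30. Among markers of other cell types, the leukocyte gene *Ptprc* had 0 to 1 reads and the endothelial genes *Pecam1* and *Cdh5* had 10 to 20 and 13 to 91. Collagen *Col1a1* had 160740 to 315471 reads, *Pdgfrb* 6236 to 40595 and the lysosomal macrophage gene *Cd68* 194 to 1389. *Pdgfrb* and *Cd68* were higher after CYC065 in all 3 populations, by 1.91, 1.27 and 1.29 and by 1.48, 2.86 and 2.45 on the log2 scale in unsorted, 2N and 4N cells. *Col1a1* was also higher in all 3, by 0.65, 0.34 and 0.38, while *Cdh5* had log2 ratios of 1.00, -0.54 and -1.74 on low counts. Whether these genes took part in the changes of the Myc network was not tested. In bulk RNA, fewer cells of a type and less RNA per cell cannot be told apart.

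Promoter sequences are shown for 3 members picked after the values and motifs were seen, namely *Mxd4* and *Mnt*, which were higher after CYC065 in all 3 populations and hold an E-box, and *Mxd3*, which was lower in all 3 and holds an E2F motif. The windows are the 250 bases upstream of the RefSeq start in GRCm38.p6, printed 5′ to 3′ along the gene's strand, with capitals marking the motif.
Mxd4 (chr5:34187711-34187960, - strand): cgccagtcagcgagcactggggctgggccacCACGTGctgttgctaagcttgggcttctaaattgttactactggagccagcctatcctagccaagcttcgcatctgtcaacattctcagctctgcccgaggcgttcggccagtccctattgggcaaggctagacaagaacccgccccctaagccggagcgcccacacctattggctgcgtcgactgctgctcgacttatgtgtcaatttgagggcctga
Mnt (chr11:74830674-74830923, + strand): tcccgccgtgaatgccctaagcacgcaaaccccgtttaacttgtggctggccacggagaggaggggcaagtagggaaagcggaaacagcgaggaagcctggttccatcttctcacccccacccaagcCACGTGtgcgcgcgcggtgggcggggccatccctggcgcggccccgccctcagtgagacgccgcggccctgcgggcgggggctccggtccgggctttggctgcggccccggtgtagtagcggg
Mxd3 (chr13:55329732-55329981, - strand): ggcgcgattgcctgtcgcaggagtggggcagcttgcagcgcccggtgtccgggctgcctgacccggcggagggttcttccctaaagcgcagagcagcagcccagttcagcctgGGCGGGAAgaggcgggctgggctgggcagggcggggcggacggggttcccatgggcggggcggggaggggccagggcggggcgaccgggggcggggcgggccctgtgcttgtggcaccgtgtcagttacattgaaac
RefSeq entries were matched for 9 of the 10 members, with 11 start sites, and none for *Myc*. The E-box searched was CACGTG, which reads the same on both strands, and the E2F motifs were TTCCCGCC, TTTGGCGC and TTTCCCGC on either strand. These letters were chosen after the values were seen. The E-box began 219 bases upstream of the *Mxd4* start and 123 bases upstream of the *Mnt* start and was present in 2 of the 11 windows, compared with 6.02% of 32851 mouse promoter windows of the same length. An E2F motif was present in 2 of the 11 windows, compared with 2.69% of all windows. The *Mxd3* copy lay on the reverse strand 137 bases upstream of the start, and the other window with an E2F motif was that of *Mycn*, which held 2 copies and was not lower after CYC065 in any population. *Mxd1* and *Mxi1*, which like *Mxd4* and *Mnt* were higher in all 3 populations, held no E-box in these windows. A match describes the letters only.

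The activating members were described first. *Myc* (ENSMUSG00000022346, chromosome 15, 61985391 to 61990374, plus strand, mm10) was the most abundant member per length in every library. Its level in CPM, the count of a gene relative to all counts of its library after normalisation between libraries by the trimmed mean of M values (TMM), was 206.8 in unsorted vehicle cells and 180.2 in unsorted CYC065 cells. It was 143.7 in vehicle and 244.5 in CYC065 2N cells, and 138.3 in vehicle and 253.3 in CYC065 4N cells. Both sorted CYC065 libraries thus lay above all vehicle libraries, while the unsorted CYC065 library lay below its own control. As compared with vehicle, *Myc* was lower by a log2 ratio of -0.20 (95% counting interval -0.24 to -0.16) in unsorted cells, and higher by 0.77 (0.73 to 0.81) in 2N cells and by 0.87 (0.84 to 0.91) in 4N cells. The CYC065 log2 ratio in 2N cells exceeded that in unsorted cells by 0.97 (0.91 to 1.02), and the ratio in 4N cells exceeded it by 1.07 (1.02 to 1.13). These intervals exclude 0 for counting error, but a difference between cultures could not be tested.

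The opposite signs came with a difference between the sorted and the unsorted libraries in both treatments. Under vehicle, unsorted cells had more *Myc* than either sorted library (log2 ratio 0.53 over 2N and 0.58 over 4N), and under CYC065 they had less (-0.44 and -0.49). A pool of 2N and 4N cells alone would lie between them. Unsorted samples can also hold cells between or beyond the gates, and sorted cells had been stained, washed and sorted, and the parts of gating and of handling cannot be told apart in these libraries. Immediate early and heat shock genes respond quickly to handling and to many other stimuli, and their unsorted levels were placed against the sorted libraries. Under vehicle, the unsorted level lay below both sorted libraries beyond counting error in 4 of 14 such genes, beside 31.9% of all genes. It lay above both in 5, beside 29.4%, and not outside both in the other 5. These counts were near the shares of all genes. Under CYC065 the level lay below both in 4 of the 14, beside 26.5%, and above both in 2, beside 25.3%. *Fos* was at 2.09 CPM in unsorted vehicle cells, at 18.1 in vehicle 2N cells and at 9.14 in vehicle 4N cells, while *Hspa1b* was at 11.8, 4.88 and 4.08. The part of these genes' response in the *Myc* values was not tested.

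The paralogs of *Myc* were expressed at low levels. *Mycn* (chromosome 12, 12936093 to 12941914, minus strand) was at 2.20, 2.03 and 2.32 CPM in unsorted, 2N and 4N vehicle cells, and at 2.76, 3.54 and 2.66 CPM after CYC065. The counting interval of its ratio excluded 0 in 2N cells (log2 ratio 0.80, 0.46 to 1.14) but not in unsorted or 4N cells. *Mycl* (chromosome 4, 122995652 to 123002485, plus strand) was at 1.17, 2.73 and 4.19 CPM in unsorted, 2N and 4N vehicle cells, which corresponded to 68, 157 and 253 reads. After CYC065 it was at 4.06, 3.98 and 3.96 CPM. The vehicle libraries therefore spread widely while the CYC065 libraries differed by less than counting error. Its log2 ratio was 1.80 (1.40 to 2.21) in unsorted cells, 0.54 (0.24 to 0.85) in 2N cells and -0.08 (-0.34 to 0.17) in 4N cells. The pattern across the 3 populations ran opposite to that of *Myc*, with the difference between 2N and unsorted cells at -1.25 (-1.75 to -0.76).

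**Figure D1:**
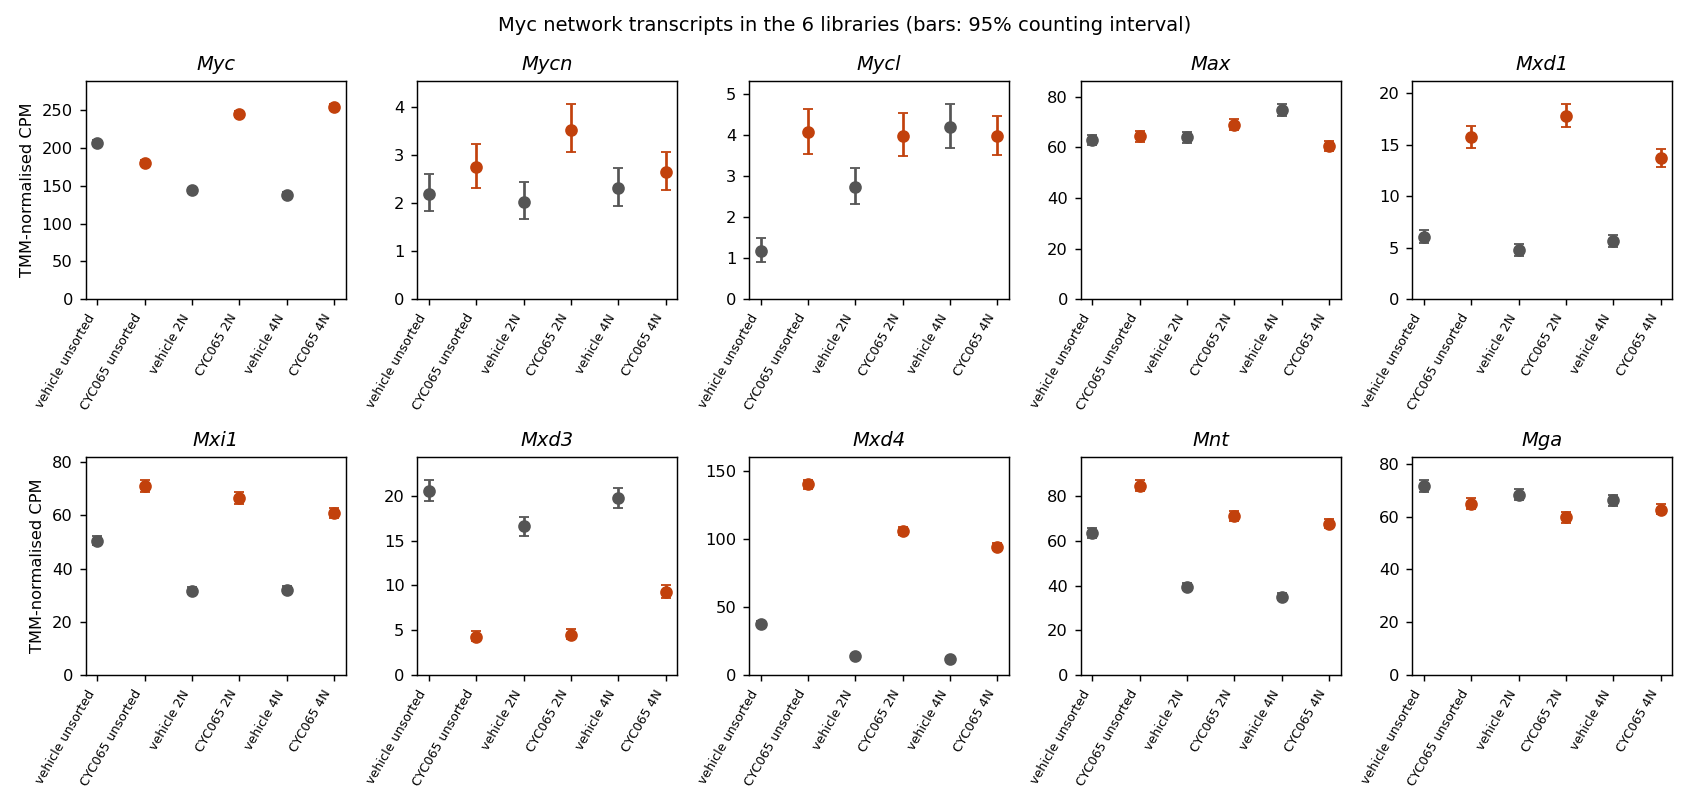
TMM-normalised CPM (y axis, from 0, separate scale per gene) of the 10 members in the 6 libraries (x axis), with vehicle in grey and CYC065 in orange and bars for the 95% counting interval of 1 library. The CYC065 points lie above all vehicle points for *Mycn*, *Mxd1*, *Mxi1*, *Mxd4* and *Mnt* and below them for *Mxd3* and *Mga*. For *Mycn* and *Mga* some counting intervals overlap between treatments. The share of all genes that separate by treatment was not counted. *Myc* at 180.2 CPM in unsorted CYC065 cells lies between its vehicle values.

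*Max* (chromosome 12, 76937269 to 76962201, minus strand), the partner that the network shares, varied least apart from *Mga*. It was at 62.9, 63.9 and 74.7 CPM in unsorted, 2N and 4N vehicle cells and at 64.3, 69.0 and 60.5 CPM after CYC065. Its log2 ratio was 0.03 (-0.04 to 0.10) in unsorted cells, a sign that turned when library size alone was used for scaling. It was 0.11 (0.04 to 0.17) in 2N cells and -0.30 (-0.37 to -0.24) in 4N cells. *Mga* (chromosome 2, 119897228 to 119969581, plus strand), the large factor of the alternative Max complex, was at 71.6, 68.3 and 66.2 CPM under vehicle and at 64.9, 59.8 and 62.7 CPM under CYC065. Its log2 ratios were -0.14, -0.19 and -0.08 in unsorted, 2N and 4N cells.

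Among the repressing partners, *Mxd4* (chromosome 5, 34173883 to 34187720, minus strand) had the widest range of all 10 members. It was at 37.9, 14.4 and 12.1 CPM in unsorted, 2N and 4N vehicle cells and at 140.1, 105.8 and 94.4 CPM after CYC065, with no overlap between treatments. How many of all genes lack such overlap was not counted, here or for the members below. The *Mxd4* level after CYC065 was 3.70-fold higher in unsorted cells (log2 ratio 1.89, 1.82 to 1.96), 7.37-fold higher in 2N cells (2.88, 2.78 to 2.99) and 7.78-fold higher in 4N cells (2.96, 2.85 to 3.07). The smaller ratio in unsorted cells accompanied a higher vehicle level there, which exceeded vehicle 2N by 1.40 and vehicle 4N by 1.64 on the log2 scale. An antisense gene, Gm42846, shares 514 exon bases with *Mxd4* and had at most 2 reads in a library.

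*Mxd1* (chromosome 6, 86647042 to 86669161, minus strand), an antagonist of Myc known from differentiating cells, was at 6.08, 4.78 and 5.63 CPM under vehicle and at 15.7, 17.8 and 13.7 CPM under CYC065. Its log2 ratios were 1.37 (1.19 to 1.55) in unsorted, 1.89 (1.70 to 2.09) in 2N and 1.28 (1.10 to 1.46) in 4N cells. All 3 CYC065 values lay above all 3 vehicle values. *Mxi1* (chromosome 19, 53310518 to 53375810, plus strand), also called Mxd2, was at 50.5, 31.7 and 32.1 CPM under vehicle and at 70.9, 66.5 and 60.7 CPM under CYC065. The log2 ratio was 0.49 (0.42 to 0.56) in unsorted, 1.07 (0.99 to 1.15) in 2N and 0.92 (0.84 to 1.00) in 4N cells, so the 2N and 4N values lay just past and just short of 2-fold.

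*Mnt* (chromosome 11, 74830920 to 74845725, plus strand), which is made in most cells whether or not they proliferate, was at 63.6, 39.6 and 35.1 CPM under vehicle and at 84.8, 71.3 and 67.8 CPM under CYC065. Its log2 ratios of 0.42 (0.35 to 0.48), 0.85 (0.77 to 0.92) and 0.95 (0.88 to 1.03) in unsorted, 2N and 4N cells did not pass 2-fold. *Mxi1*, *Mxd4* and *Mnt* shared a profile, in that their unsorted vehicle level exceeded both sorted vehicle levels and their CYC065 levels exceeded all of them. Pearson correlations of log2 CPM over the 6 libraries were 0.99 between *Mxd4* and *Mxi1* and 0.97 between *Mxd4* and *Mnt*. These libraries form 2 treatment groups, and the correlations are descriptions.

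*Mxd3* (chromosome 13, 55325168 to 55329823, minus strand) moved in the other direction from the rest of the Mxd genes. It was at 20.5, 16.6 and 19.7 CPM in unsorted, 2N and 4N vehicle cells and at 4.28, 4.51 and 9.29 CPM after CYC065. All CYC065 values lay below all vehicle values, and the 4N value was the highest of the CYC065 values. Its log2 ratio was -2.26 (-2.47 to -2.06) in unsorted cells, -1.88 (-2.09 to -1.68) in 2N cells and -1.09 (-1.23 to -0.94) in 4N cells. *Mxd3* shares 105 exon bases with *Prelid1* on the opposite strand, and the strand setting of the counting is not given in the sources used here. *Prelid1* had 18106, 13930 and 14712 reads in unsorted, 2N and 4N vehicle cells and 6571, 8651 and 9445 after CYC065. The part of *Prelid1* reads in the *Mxd3* counts was not tested.

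As compared with vehicle, 3 of the 10 members were more than 2-fold higher after CYC065 in unsorted cells (*Mycl*, *Mxd1* and *Mxd4*), where 12.7% of all genes tested were, and 1 was more than 2-fold lower (*Mxd3*), where 12.7% of all genes were. In 2N cells 3 members were higher (*Mxd1*, *Mxi1* and *Mxd4*), against 16.3% of all genes, and 1 was lower (*Mxd3*), against 11.5%. In 4N cells 2 members were higher (*Mxd1* and *Mxd4*), against 15.6% of all genes, and 1 was lower (*Mxd3*), against 10.1%. With 10 members these counts lay within 2 genes of the background shares. The median log2 ratio of the members was 0.37 in unsorted, 0.78 in 2N and 0.53 in 4N cells, whereas that of all genes tested was -0.01, 0.01 and 0.03.

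**Figure D2:**
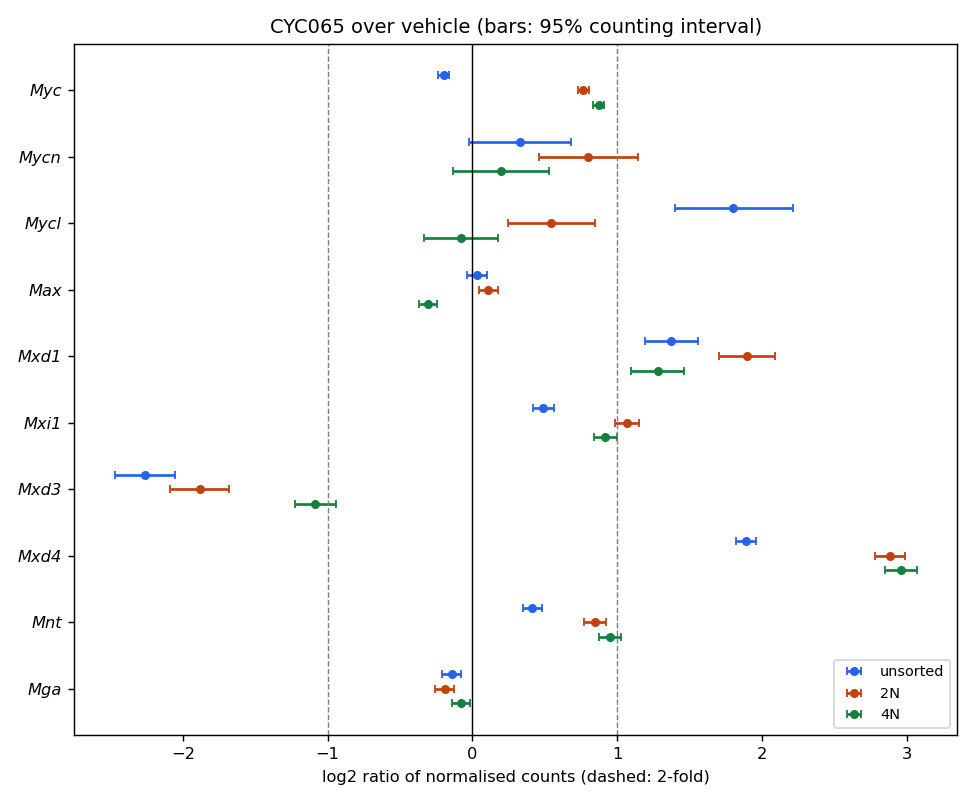
Log2 ratio of CYC065 over vehicle (x axis) for each member (y axis) in unsorted (blue), 2N (orange) and 4N (green) cells, with bars for the 95% counting interval and dashed lines at 2-fold. *Mxd4* lies furthest right (2.96 in 4N cells) and *Mxd3* furthest left (-2.26 in unsorted cells), and *Myc* lies left of 0 in unsorted cells alone.

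The levels were next compared between members per kilobase of annotated exon, a scale on which longer genes do not score higher. In unsorted vehicle cells *Myc* was at 76.1 CPM per kilobase, followed by *Max* at 17.5, *Mnt* at 13.7, *Mxd3* at 8.67 and *Mxi1* at 7.40. *Mga* at 4.67 and *Mxd4* at 4.46 followed, with overlapping counting intervals, and *Mxd1*, *Mycn* and *Mycl* were each below 1. After CYC065 *Mxd4* moved from the seventh to the fourth place in unsorted cells, at 16.5 CPM per kilobase, and *Mxd3* went from the fourth to the eighth, at 1.81. *Mnt* at 18.3 and *Max* at 17.9 had overlapping intervals in that library. In 2N cells *Mxd4* went from the seventh place at 1.69 to the fourth at 12.5, and in 4N cells from the seventh at 1.43 to the fourth at 11.1. With the length of the longest transcript in place of all exons, *Mxd4* took the third place in all CYC065 libraries.

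The summed level of *Myc*, *Mycn* and *Mycl* was 77.1, 54.2 and 52.6 CPM per kilobase in unsorted, 2N and 4N vehicle cells and 68.2, 92.1 and 95.02 after CYC065. That of *Mxd1*, *Mxi1*, *Mxd3*, *Mxd4* and *Mnt* was 35.1, 22.6 and 22.8 under vehicle and 49.3, 42.0 and 40.5 under CYC065. Their ratio to the Myc family was 0.456 in unsorted vehicle and 0.723 in unsorted CYC065 cells. In 2N cells the ratio was 0.417 under vehicle and 0.457 under CYC065, and in 4N cells 0.434 and 0.427. The ratio was thus higher after CYC065 in unsorted cells, while in sorted cells both sums were higher after CYC065. With the longest transcript, the ratios were 0.504 and 0.867 in unsorted, 0.454 and 0.542 in 2N and 0.477 and 0.502 in 4N cells, so that the direction in 4N cells depended on the length used. These are transcript ratios and give no protein or dimer levels.

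**Figure D3:**
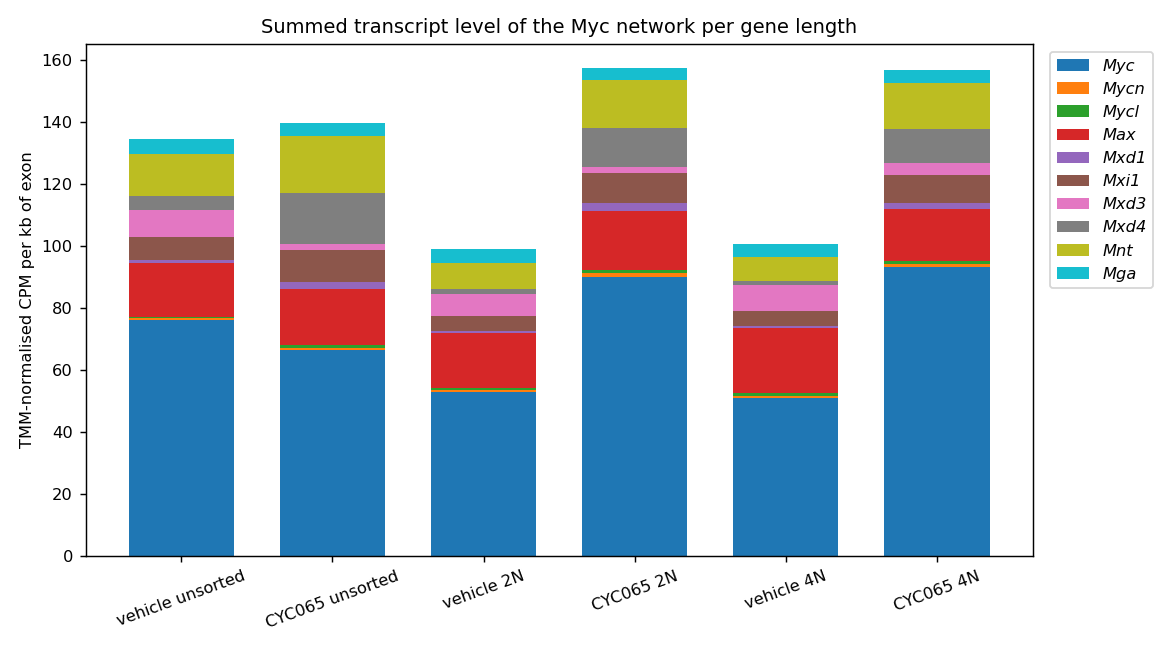
Stacked bars of TMM-normalised CPM per kilobase of exon (y axis, from 0) for the 10 members in the 6 libraries (x axis), 1 library each and without error bars. The *Myc* segment is 52.9 and 50.9 in the vehicle 2N and 4N bars and 90.0 and 93.2 in the CYC065 2N and 4N bars, and the *Mxd4* segment is wider in all 3 CYC065 bars.

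A second question of the design was whether polyploid cells differ from diploid cells. Under vehicle 0 of the 10 members passed 2-fold between 4N and 2N cells, where 2.76% of all genes did. *Mycl* differed most, with a log2 ratio of 0.62 (0.33 to 0.92), followed by *Mxd3* at 0.25 (0.12 to 0.37), *Mxd4* at -0.24 (-0.39 to -0.10), *Mxd1* at 0.24 (0.00 to 0.47) and *Max* at 0.22 (0.16 to 0.29). *Myc* was at -0.06 (-0.10 to -0.01). A 4N gate holds diploid cells in G2 and mitosis as well as polyploid cells in G1, so 4N and 2N cells also differ in cell cycle phase.

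Under CYC065 1 of the 10 members passed 2-fold, against 3.65% of all genes. This was *Mxd3*, with 4.51 CPM in 2N and 9.29 CPM in 4N cells (log2 ratio 1.04, 0.83 to 1.26). The interval crosses 2-fold, and without the third deposited column of CYC065 2N cells the ratio was 0.98, below the threshold. *Mycn* was at -0.41 (-0.71 to -0.11), *Mxd1* at -0.38 (-0.51 to -0.25), *Max* at -0.19 (-0.25 to -0.12) and *Mxd4* at -0.17 (-0.22 to -0.11). *Myc* was at 0.05 (0.02 to 0.08).

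The CYC065 log2 ratio was then compared between 4N and 2N cells. Its difference passed 1 in 0 of the 10 members, where it did in 7.2% of all genes. For *Mxd3* the difference was 0.80 (0.55 to 1.04), its CYC065 ratio being less negative in 4N cells. For *Mycl* it was -0.63 (-1.01 to -0.24), for *Mxd1* -0.61 (-0.88 to -0.35), for *Mycn* -0.60 (-1.06 to -0.14) and for *Max* -0.41 (-0.50 to -0.32). For *Mxd4* it was 0.08 (-0.07 to 0.23) and for *Mnt* 0.10 (0.00 to 0.21), and for *Myc* it was 0.11 (0.05 to 0.16). The 2 populations thus shared the sign of the CYC065 ratio in 8 members, the exceptions being *Max* and *Mycl*. In 4N cells the interval included 0 for *Mycl* and also for *Mycn* (0.20, -0.13 to 0.53), so their direction there was not settled. The share of all genes with a common sign was not counted.

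**Figure D4:**
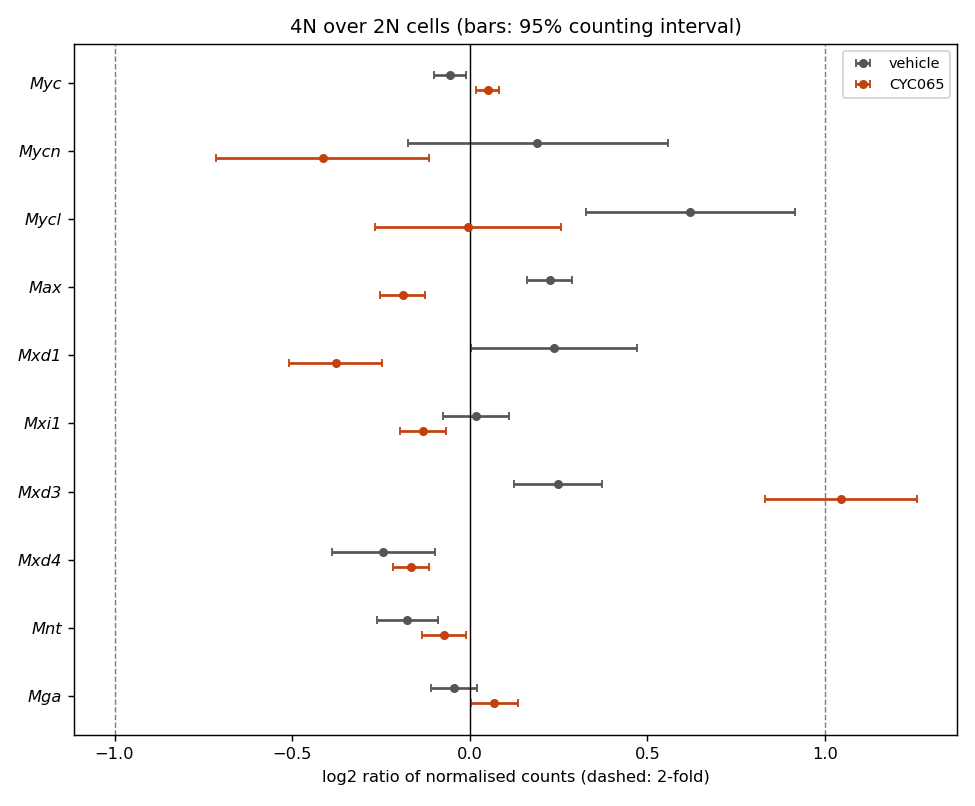
Log2 ratio of 4N over 2N cells (x axis) for each member (y axis) under vehicle (grey) and CYC065 (orange), with bars for the 95% counting interval and dashed lines at 2-fold. Values lie between -0.41 and 1.04, and *Mxd3* under CYC065 is the one point past a dashed line.

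The position of unsorted cells was described for all members, a comparison chosen after the values were seen. Under vehicle the unsorted level lay above both sorted libraries beyond counting error in 5 of the 10 members (*Myc*, *Mxi1*, *Mxd4*, *Mnt* and *Mga*), as in 29.4% of all genes, and below both in 1 member (*Mycl*), as in 31.9%. Under CYC065 it lay above both in 3 members (*Mxi1*, *Mxd4* and *Mnt*), as in 25.3% of all genes, and below both in 1 member (*Myc*), as in 26.5%. Such positions were thus common among all genes.

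Genes that work with the network were compared by lists drawn from textbook knowledge. The lists were chosen with earlier results of these data known. The shares of all genes beside their counts are therefore no independent background. Of 17 cofactors, 4 were more than 2-fold lower after CYC065 in unsorted, 2 in 2N and 1 in 4N cells, beside 12.7%, 11.5% and 10.1% of all genes, and 0 were higher. The counts in 2N and 4N cells were near or below those shares. *L3mbtl2*, a partner of Mga in its Polycomb-related complex, was at 43.4, 57.3 and 63.0 CPM in unsorted, 2N and 4N vehicle cells and at 17.1, 22.5 and 32.9 CPM after CYC065. *Kat5*, an acetyltransferase recruited by Myc, had log2 ratios of -1.21, -1.21 and -1.12, and *Wdr5*, which helps Myc bind chromatin, of -0.90, -0.93 and -0.80. The median of the cofactors was -0.37, -0.26 and -0.40.

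Of 7 genes for turnover of the Myc protein, 1 was more than 2-fold lower after CYC065 in unsorted cells, where 12.7% of all genes were, 0 were in 2N or 4N cells, and 0 were higher. These counts were near or below the shares of all genes. The lower gene was *Cip2a*, which shields Myc from the phosphatase PP2A, with log2 ratios of -1.35, -0.81 and -0.40 in unsorted, 2N and 4N cells. *Usp36*, a nucleolar deubiquitinase for Myc, was at -0.96, -0.86 and -0.78. The ubiquitin ligase gene *Huwe1* was at -0.35, -0.62 and -0.41, and *Fbxw7*, which encodes a subunit of another ubiquitin ligase, at -0.01, -0.21 and -0.13. The median of the list was -0.35, -0.21 and -0.13.

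In the parallel network, *Mlx*, a partner of several Mxd proteins, was at 29.4, 30.7 and 34.0 CPM under vehicle and at 19.5, 20.4 and 23.5 CPM after CYC065, with log2 ratios of -0.59, -0.59 and -0.53. *Mlxip*, which encodes the glucose-responsive factor MondoA, had ratios of 0.54, 0.35 and 0.52. *Mlxipl*, the gene for ChREBP, had 0 reads in 5 libraries and 2 in CYC065 2N cells. *Pvt1* (chromosome 15, 62037986 to 62378096, plus strand), a long noncoding RNA gene that lies downstream of *Myc*, had log2 ratios of 0.23 (unsorted), -0.02 (2N) and 0.41 (4N). Its counts were in part divided between genes that share its sequence and are uncertain to that extent. *Pvt1* did not follow *Myc* across the libraries, since 2N cells showed 0.77 for *Myc* and -0.02 for *Pvt1*.

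Genes that textbooks list as activated by Myc were lower after CYC065 in all 3 populations. Of 49 such genes, mainly for ribosome production and growth metabolism, 33 were more than 2-fold lower in unsorted, 34 in 2N and 32 in 4N cells, beside 12.7%, 11.5% and 10.1% of all genes, and 0 were more than 2-fold higher. Their median log2 ratio was -1.19, -1.20 and -1.13. This list, like those of repressed targets and immediate early genes below, was chosen with earlier results of these data known. Its counts beside the shares of all genes are descriptions. *Tfrc*, the transferrin receptor for iron uptake, was at 238.2, 593.6 and 551.8 CPM in unsorted, 2N and 4N vehicle cells and at 35.7, 60.5 and 66.4 CPM after CYC065, with log2 ratios of -2.74, -3.29 and -3.05. *Nop16*, for a nucleolar ribosome biogenesis protein, was at 26.0, 32.9 and 28.6 CPM under vehicle and at 4.77, 6.25 and 5.12 CPM under CYC065. *Rrp12*, which acts in ribosomal subunit export, had log2 ratios of -1.81, -2.37 and -1.77. *Ncl*, for the abundant nucleolar protein nucleolin, was at 948.2, 1225.1 and 1126.8 CPM under vehicle and at 316.3, 440.7 and 458.3 CPM under CYC065. *Slc3a2* and *Slc7a5*, the subunits of an amino acid transporter, were exceptions, with ratios of 0.01, 0.26 and 0.49 and of -0.92, -0.19 and 0.11. *Ncl*, *Slc3a2*, *Slc7a5* and *Fbxw7* were picked after their values were seen.

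The direction of the activated targets did not follow the *Myc* transcript. In 2N cells the *Myc* ratio was 0.77 and the median of the targets -1.20, and in unsorted cells the *Myc* ratio was -0.20 and the median -1.19. These genes also answer to other growth signals, and no protein or DNA binding was measured. The cause of the lower target levels was not tested.

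Genes that textbooks list as repressed by Myc were mostly more than 2-fold higher after CYC065 in sorted cells. Of 6 tested of 7 listed, 2 were more than 2-fold higher in unsorted, 5 in 2N and 4 in 4N cells, beside 12.7%, 16.3% and 15.6% of all genes. *Gadd45a*, a stress-induced growth arrest gene, was at 13.1, 3.55 and 3.81 CPM in unsorted, 2N and 4N vehicle cells and at 40.7, 29.5 and 24.9 CPM after CYC065. *Gas1*, a growth arrest gene, had log2 ratios of 2.48, 3.01 and 2.88, and *Cdkn1b*, which encodes the CDK inhibitor p27, of 0.93, 1.67 and 1.46. *Cdkn1a*, which encodes the inhibitor p21 and was the exception, had ratios of -1.17, -0.28 and -0.58 and was the 1 gene more than 2-fold lower, in unsorted cells. It was named after its values were seen.

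Of 14 immediate early and heat shock genes, 8 were more than 2-fold higher after CYC065 in unsorted, 12 in 2N and 10 in 4N cells. Of all genes, 12.7%, 16.3% and 15.6% were higher to that extent. Under CYC065, 4 of the 14 were more than 2-fold lower in 4N than in 2N cells, where 2.1% of all genes were. Under vehicle 0 of the 14 were, where 1.74% of all genes were. Lower 4N levels were nevertheless seen in both treatments. The counting interval lay below 0 in 12 of the 14 under vehicle (median log2 ratio -0.53) and in 14 under CYC065 (median -0.84). Of all genes, 53.8% under vehicle and 55.1% under CYC065 had an interval that excluded 0 in either direction. The share of all genes below 0 was not counted. *Fos* was at 31.8, 107.1 and 51.3 CPM in unsorted, 2N and 4N CYC065 cells, *Nr4a1*, an orphan nuclear receptor gene, at 42.3, 107.3 and 50.0 and the heat shock gene *Hspa1b* at 22.7, 40.7 and 21.7. *Myc* is itself an immediate early gene in many cells. Under CYC065 its unsorted level lay below both sorted libraries. The same held for 4 of the 14 genes (*Fos*, *Atf3*, *Btg2* and *Nr4a1*), beside 26.5% of all genes. An unsorted level above both was seen in 2 of the 14 (*Egr1* and *Dusp1*), beside 25.3% of all genes. Under vehicle the unsorted level of *Myc* lay above both. That was also so in 5 of the 14 genes (*Ier2*, *Ier3*, *Zfp36*, *Hspa1a* and *Hspa1b*), beside 29.4% of all genes.

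**Figure D5:**
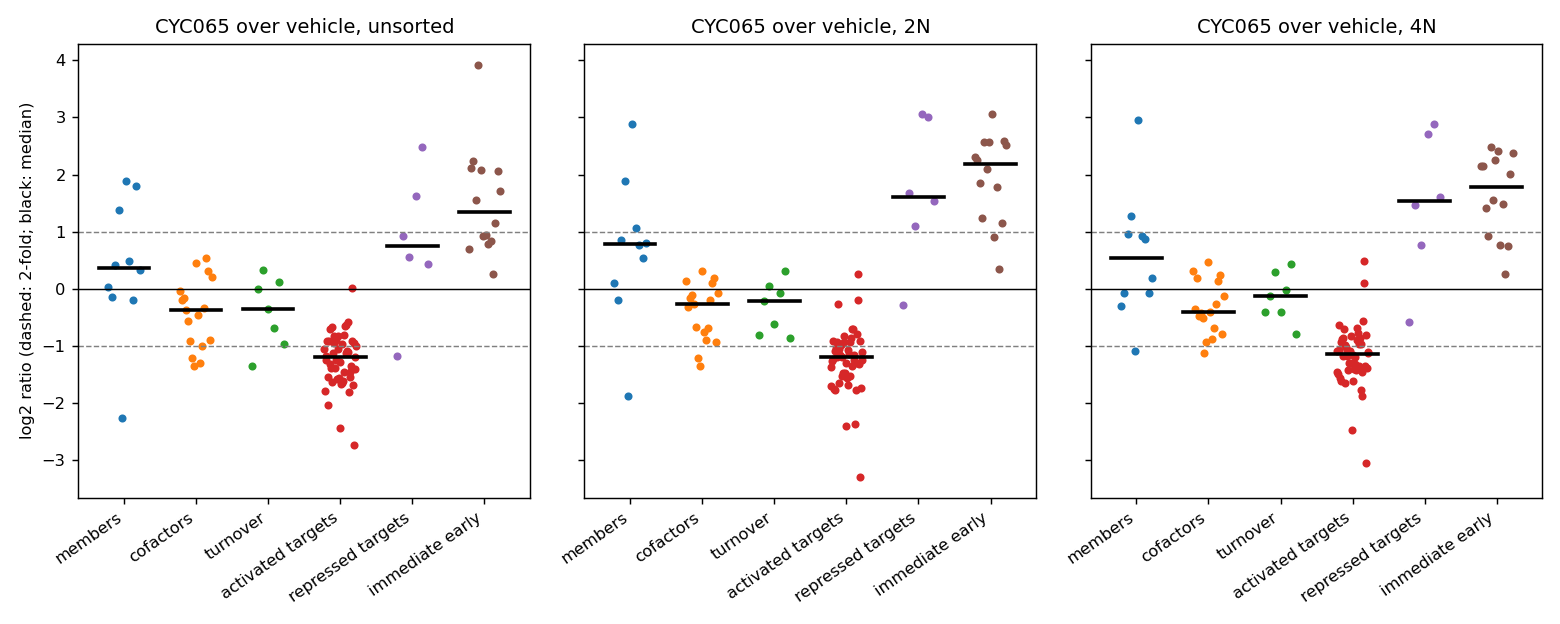
Log2 ratio of CYC065 over vehicle (y axis) for the genes of 6 lists (x axis) in unsorted, 2N and 4N cells, with each point a gene having at least 30 reads in either library, black bars for list medians and dashed lines at 2-fold. The activated targets centre on -1.19, -1.20 and -1.13 while the 10 members centre on 0.37, 0.78 and 0.53.

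The genes most like *Myc* in log2 CPM over the 6 libraries, among 8577 genes with at least 1000 reads in their highest library, were *Zfpm1* (Pearson r = 0.990), *Ccdc117* (0.989), *Tbpl1* (0.982), *Asap2* (0.980) and *Slc30a4* (0.980). *Slc30a4*, a zinc transporter gene, was at 139.6, 102.4 and 103.9 CPM in unsorted, 2N and 4N vehicle cells and at 115.3, 145.1 and 153.0 CPM after CYC065, the same crossing that *Myc* showed. The genes most like *Mxd4* were *Vps18* (r = 0.9999), *Kdm7a* (0.9997) and *Rab9* (0.9986). The correlation does not measure the size of a change. Over the 6 libraries *Vps18* ran from 27.0 to 52.1 CPM, while *Mxd4* ran from 12.1 to 140.1. Likewise *Zfpm1* ran from 29.65 to 37.78 CPM, while *Myc* ran from 138.3 to 253.3. *Kdm7a*, which encodes a histone demethylase, was at 42.6, 19.5 and 16.7 CPM under vehicle and at 119.2, 100.7 and 87.5 CPM under CYC065. With 6 libraries and so many genes high values are found readily, and they are given as descriptions of likeness.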

How the data were processed

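RNA of ED1SQ4 cells was depleted of ribosomal RNA and sequenced as stranded paired-end libraries. Per the submitters' processing notes and the study's methods, adapters were removed by the authors with Cutadapt 1.18, alignment to mm10 with GENCODE M21 annotation was done in STAR 2.7.0f, and RSEM (1.3.1 in the notes) estimated gene counts. The deposited values are expected counts, which RSEM may divide between genes with shared sequence. Of 55450 genes 9.66% had fractional values, whereas all 10 members had whole counts in every column.

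Each of the 6 conditions had 3 of the 18 deposited columns. Within a condition the column totals differed by 0.0154% to 0.0681%, and chi-square per degree of freedom was 0.991 to 1.02 over genes with whole counts and a mean count of at least 10 (4.35 to 7.60 over those with fractional counts), as compared with 36.6 to 390 between libraries. The columns were therefore summed and counted as 1 sample, and the planned fits across columns served as alternatives. Among 60 sets of 3 member counts, 2 exceeded the 5% critical value of chi-square.

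Summed counts were scaled by TMM factors (0.918 to 1.06) from edgeR 4.0.16 in R 4.3.3. A gene was tested with at least 30 reads in 1 of the libraries compared and was called past 2-fold. Ratios carry exact Clopper-Pearson 95% intervals, and differences of ratios carry intervals from the Poisson standard error. Reads are not independent molecules, so the intervals cover counting error only. Depth was 54750203 to 62795507 reads, and 3 reads corresponded to 0.0478 to 0.0548 CPM. A CPM value is a share of the reads in a library and not an amount per cell. Levels per length used the union of exons or the longest transcript in GENCODE M21. DESeq2 1.42.0 and edgeR on the rounded columns were alternatives, and the scripts were tested on simulated data. Intervals and summaries were computed with SciPy 1.17.1, NumPy 2.4.6 and pandas 2.3.3 under Python 3.11.15. All members, *Mlx*, *Mlxip*, *Mlxipl* and *Pvt1* were named, and from each other list the 3 genes with the largest absolute ratio in 2N cells among those with at least 100 reads, as were the 5 genes most like *Myc* and the 3 most like *Mxd4*. The members and lists were chosen with earlier results of these data known. An item of the turnover list is not reported here and was left out of it.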

Additional observations from a re-analysis of the deposited data

Results flagged for a closer look

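*Myc* differed in direction between populations. Its CYC065 log2 ratio was -0.20 without sorting, 0.77 in the 2N population and 0.87 in the 4N population. *Myc* also had opposite signs between 4N and 2N cells, at -0.06 under vehicle and 0.051 under CYC065, although both values were small. For *Max* the CYC065 log2 ratio was 0.11 in 2N cells and -0.30 in 4N cells, and the ratio of 4N over 2N cells was 0.22 under vehicle and -0.19 under CYC065. For *Mxd1* the ratio of 4N over 2N cells was 0.24 under vehicle and -0.38 under CYC065. In each of these pairs both counting intervals excluded 0 on opposite sides with TMM scaling. For 4N over 2N cells under vehicle this was narrow, since the *Mxd1* interval began at 0.0035 and the *Myc* interval ended at -0.01. That *Myc* ratio ranged from -0.08 to -0.03 over 12 alternative settings. With 1 library per condition a difference between cultures was not tested, and the number of such pairs that all genes would give was not counted.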

How the results depend on the processing

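The counts of members past 2-fold were 4, 4 and 3 for CYC065 in unsorted, 2N and 4N cells, 0 and 1 for 4N against 2N cells under vehicle and CYC065, and 0 for the difference of ratios. For 4N against 2N cells under CYC065 the count ranged from 0 to 1 when each deposited column was left out in turn, being 0 without the third column of CYC065 2N cells, and it was 0 when the whole interval had to lie beyond 2-fold. That requirement also removed *Mxi1* in 2N cells (4 to 3 members) and *Mxd3* in 4N cells (3 to 2) for CYC065. It left 4 members in unsorted cells. Of all genes, 17.9%, 19.8% and 17.1% met it for CYC065 in unsorted, 2N and 4N cells. For 4N against 2N cells under CYC065 the share was 1.15%. At a threshold of 1.5-fold the counts for CYC065 were 4 in unsorted, 7 in 2N and 6 in 4N cells. Of all genes, 46.9%, 49.6% and 47.5% passed. The counts of members were 1 for 4N against 2N cells under vehicle (9.26% of all genes), 1 under CYC065 (9.91%) and 4 for the difference of ratios (16.3%). An edgeR fit on the columns with the column number as a replicate block gave 4, 4, 3, 0, 1 and 0. The numbers mark parts of 1 library and pair nothing. Scaling by library size alone moved the median of all genes in unsorted cells from -0.01 to -0.12 and gave 4 members for CYC065 in 4N cells, and it turned the sign of *Max* in unsorted cells (-0.08). The *Myc* ratio stayed between -0.31 and -0.16 in unsorted, 0.73 and 0.83 in 2N and 0.83 and 0.95 in 4N cells over 12 alternatives each. The activated targets more than 2-fold lower numbered 31 to 40, 32 to 36 and 29 to 35 of 49 over the same alternatives, which were applied to them after the data were seen. With 1 library per condition no setting shows how cultures vary.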
